A study of Homo sapiens with 13 samples.

Results

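The genes described here are 6 genes of S phase and DNA replication: CDC6, MCM3, MCM6, GINS1, RRM2 and CCNA2. They were taken as a fixed list, chosen with earlier results of these data known. Every listed ChIP-seq peak with its summit within 100 kb of a gene's hg19 start was assigned to that gene. That gave 52 of the 50467 peaks of the series, in 25 of the 28100 regions made by joining overlapping peaks. The study mapped YAP, TAZ, TEAD4 and JUN by chromatin immunoprecipitation and sequencing (ChIP-seq) in MDA-MB-231, an established human breast cancer cell line, grown without any genetic change or drug named in the labels. YAP and TAZ (gene WWTR1) are the coactivators controlled by the Hippo pathway, TEAD4 is the TEAD-family protein through which they can contact DNA, and JUN belongs to the AP-1 family of DNA-binding factors. Each factor has 2 libraries. YAP and TAZ were called against 2 pooled rabbit IgG libraries, and TEAD4 and JUN each against 2 of 3 mouse IgG libraries, with mouse IgG library 3 used for both. The authors deposited 1 peak list per factor for both libraries together, so no value below has a spread between replicates and none was tested.

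Replication is prepared in G1, when CDC6 helps to load the ring-shaped MCM helicase, which contains MCM3 and MCM6, onto origins. In S phase the GINS complex, of which GINS1 is a subunit, joins that helicase and switches it on, RRM2 (the small subunit of ribonucleotide reductase) supplies deoxynucleotides, and cyclin A2 (CCNA2) drives its kinase partners through S phase and into G2. Genes of this kind are classically controlled at their promoters by E2F factors, whereas YAP and TAZ are known to bind mostly at enhancers away from gene starts. These are background facts and not results of these data.

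Of the 25 regions, 1 had a summit within 1 kb of a gene start, and it lay at GINS1. That zone makes up 1% of the 100 kb searched on either side. The same count over other gene starts was not made, so it cannot be called a trait of these genes. The other 24 regions lay between -98.2 and +95.6 kb of their start (upstream positions are negative). All 6 genes had a JUN peak within 100 kb, against 55.0% of 200-kb tiles laid along the chromosomes. YAP was listed at 5 of 6 genes (30.2% of tiles), TAZ at 5 of 6 (34.4%) and TEAD4 at 5 of 6 (31.5%). A region with all 4 factors lay near 5 of 6 genes (19.6% of tiles). RRM2 was the gene without YAP, TAZ or TEAD4. The tiles are not matched for gene content and include gaps of the build. The 6 genes were chosen with earlier results of these data known, and their shares were not tested against the tiles. Among tiles with a peak of any list, the shares were 52.0% for YAP, 59.2% for TAZ, 54.2% for TEAD4, 94.7% for JUN and 33.7% for all 4. The lists hold 7709 YAP, 9798 TAZ, 8406 TEAD4 and 24554 JUN peaks, so JUN has the most to place.

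**Figure D1:**
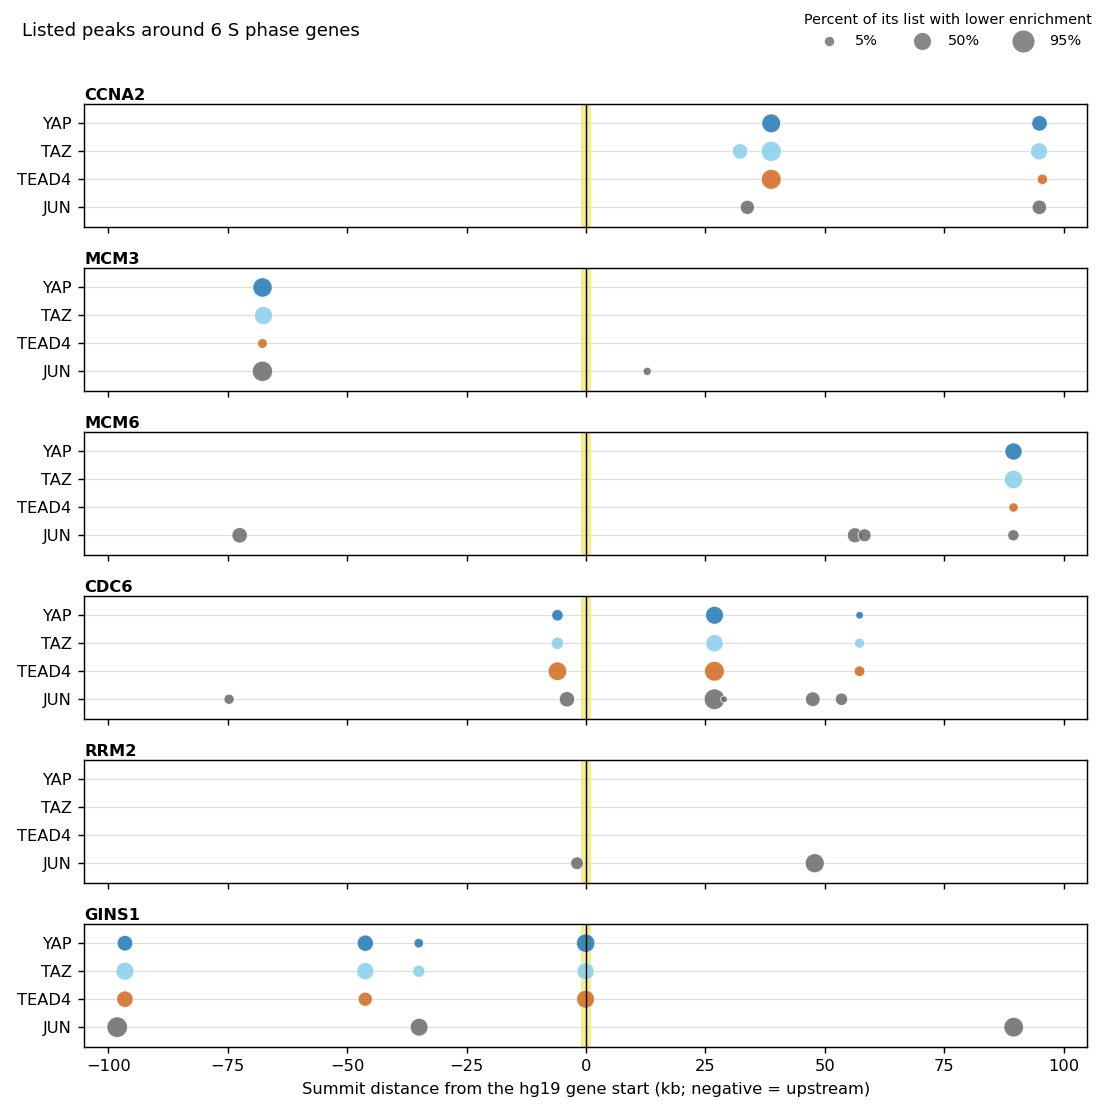
Each point is a listed peak, placed by the distance of its summit from the hg19 gene start in kb (horizontal axis) in the row of its factor, with 1 panel per gene. Larger points have more of their own list below them in fold enrichment, and the yellow band is the 1 kb on either side of the start. The band holds peaks at GINS1 and at no other gene, and RRM2 has JUN points alone.

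At the start of GINS1, YAP, TAZ and TEAD4 each had a listed peak, and JUN was not listed. The joined region covered hg19 chr20:25387967-25388650 and spanned the start. Fold enrichment over IgG, the authors' value for each peak, was 10.0 for YAP with the summit at -59 bp. It was 8.23 for TAZ at -78 bp and 9.33 for TEAD4 at -86 bp, so the 3 summits fell within 27 bp. These peaks stood above the middle of each list: 78.2% of YAP peaks, 66.0% of TAZ peaks and 73.1% of TEAD4 peaks had lower enrichment. By the authors' p the shares were 86.4%, 76.7% and 77.8%. The nearest JUN summit lay 34.8 kb from the TEAD4 summit, and 35.5% of the 1209 regions of the series with YAP, TAZ and TEAD4 but no JUN were at least as far from one. Their median was 16.0 kb.

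The GINS1 promoter is shown because it is the one with listed peaks. Those of CDC6, MCM6 and CCNA2 are examples of genes with no peak of any list within 1 kb of their starts. MCM3 and RRM2 had none there either and are not printed. The sequences are the 250 bases before each gene's RefSeq start on build GRCh38.p14, on the gene's strand. This is another build than that of the peaks, and no position was converted between them. Capitals mark the letters searched for, on either strand: for E2F TTTCCCGC, TTTCGCGC, TTTGCCGC and TTTGGCGC, the CCAAT box, for the cell cycle element CHR TTTGAA or CTTGAA or TTCGAA or TTTAAA, for TEAD GGAATG, and for AP-1 TGANTCA. In MCM6 the E2F letters of both strands overlap each other.
GINS1: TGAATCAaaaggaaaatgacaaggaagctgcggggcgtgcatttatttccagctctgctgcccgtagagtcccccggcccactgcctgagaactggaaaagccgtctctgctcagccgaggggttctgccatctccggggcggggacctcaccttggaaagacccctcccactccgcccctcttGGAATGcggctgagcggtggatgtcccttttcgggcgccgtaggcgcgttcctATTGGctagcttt
CDC6: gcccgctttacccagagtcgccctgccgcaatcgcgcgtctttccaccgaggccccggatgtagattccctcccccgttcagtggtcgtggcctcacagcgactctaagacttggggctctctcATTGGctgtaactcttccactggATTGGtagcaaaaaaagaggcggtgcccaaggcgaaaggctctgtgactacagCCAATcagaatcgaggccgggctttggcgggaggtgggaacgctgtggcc
MCM6: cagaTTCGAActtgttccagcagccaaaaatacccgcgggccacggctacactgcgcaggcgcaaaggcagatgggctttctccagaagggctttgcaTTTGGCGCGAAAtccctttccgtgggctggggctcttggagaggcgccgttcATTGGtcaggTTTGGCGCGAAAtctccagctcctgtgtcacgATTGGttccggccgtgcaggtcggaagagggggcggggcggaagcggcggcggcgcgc
CCNA2: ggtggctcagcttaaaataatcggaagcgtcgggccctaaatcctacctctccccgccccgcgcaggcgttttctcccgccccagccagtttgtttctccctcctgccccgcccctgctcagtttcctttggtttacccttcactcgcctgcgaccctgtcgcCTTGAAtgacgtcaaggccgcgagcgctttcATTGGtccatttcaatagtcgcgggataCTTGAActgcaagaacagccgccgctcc

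The TEAD letters GGAATG were found in the GINS1 window and in none of the other 5 genes' windows. They lay from base -66 to -61 before the RefSeq start. Counting also the 50 bases after the start, these letters occur in 16.7% of the 27305 genes with a RefSeq window. The AP-1 letters were found in GINS1 alone, as TGAATCA at the far end of the window (-250 to -244), and in 9.37% of all genes. In 4 of the 6 genes (MCM3, MCM6, CDC6 and GINS1) the window held E2F letters, against 3.99% of all genes. In CDC6 and GINS1 these lay just after the start, at +8 to +15 and +6 to +13. Only the E2F letters listed above were searched for, so other forms of an E2F site would be missed in any window. CCAAT was present in all 6 (39.7% of all genes) and CHR letters in CCNA2, MCM6 and RRM2 (36.7%). The GC box GGGCGG was found in CCNA2, MCM6, RRM2 and GINS1 (48.3%). RRM2 has 2 RefSeq starts and was counted once for either. These matches are letters in a window, and binding of E2F or of other factors to them was not measured here.

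Of 36 further replication and S phase genes, such as MCM2, PCNA and CCNE1, 30 matched a RefSeq window. E2F letters were present in 17 of the 30 (56.7%), CCAAT in 15, CHR letters in 7 (23.3%) and the GC box in 23 (76.7%). GGAATG was present in 7: MCM7, CDC7, DBF4, ORC6, POLA2, PRIM1 and POLD1. The AP-1 letters were present in none of the 30. Peaks near these genes were not analysed here, because hg19 starts were used for the 6 genes alone.

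GINS1 also had the most YAP and TAZ peaks of the 6 genes, 4 of each, with 3 TEAD4 and 3 JUN peaks in 5 regions. The farthest region lay at -96.5 kb (chr20:25289381-25292349). JUN enrichment there was 26.8, rank 257 of the JUN list and above 99.0% of it. YAP was enriched 7.51-fold, TAZ 9.06-fold and TEAD4 7.96-fold, above 53.0%, 73.3% and 59.7% of their own lists. By p these 3 shares were 65.6%, 79.7% and 48.0%. This region counts as one with all 4 lists because a wide JUN peak covers the other 3 peaks. The JUN summit lay 1626 bp from those of TAZ and TEAD4, which were at the same base. The JUN list gives 1 summit for that wide peak, so JUN signal under the other summits cannot be judged. At -46.2 kb (chr20:25341686-25342306) YAP was enriched 7.92-fold, TAZ 8.30-fold and TEAD4 6.64-fold, without JUN. These values exceeded 58.3%, 66.6% and 41.3% of the lists, but by p the shares were 33.4%, 45.8% and 23.5%, all below the middle. At -34.9 kb (chr20:25352897-25353951) JUN was enriched 14.6-fold with YAP at 5.51 and TAZ at 5.89, both low in their lists (above 13.8% and 28.6% of peaks, or 25.3% and 40.1% by p), and no TEAD4 was listed. A JUN peak stood alone at +89.6 kb with 18.6-fold enrichment, above 88.5% of the list. Between the start and +100 kb no YAP, TAZ or TEAD4 peak was listed, and the next YAP summit on that side lay at +330.6 kb. In RefSeq's gene order ABHD12 lies next upstream and NINL next downstream of GINS1. Distance alone does not say which of these genes a site serves.

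**Figure D2:**
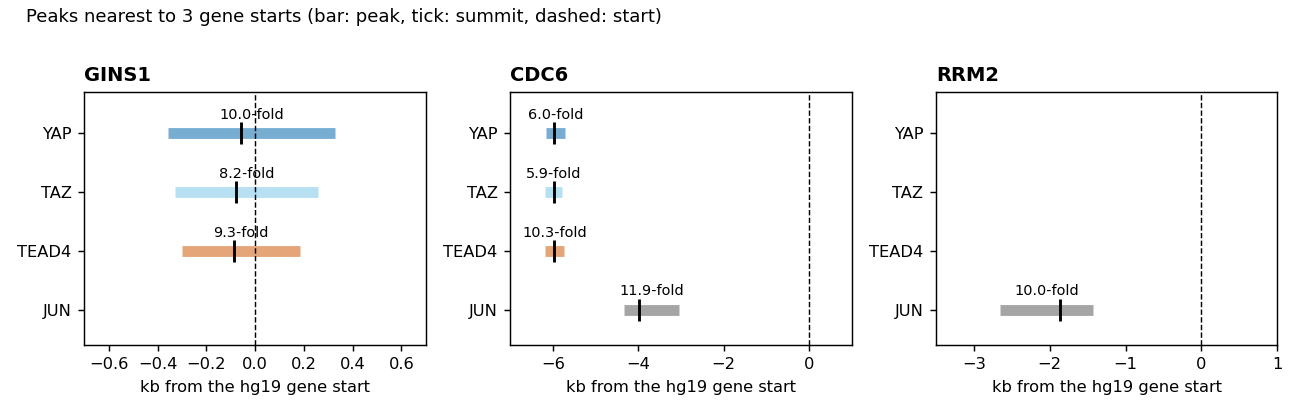
Horizontal axes give the distance from the hg19 gene start in kb, bars the extent of each listed peak, black ticks its summit and the numbers above them its fold enrichment over IgG. At GINS1 the YAP, TAZ and TEAD4 peaks cross the start, whereas at CDC6 and RRM2 the nearest peaks end before it.

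CDC6 had the most regions, 8, and 6 of its 15 peaks were JUN peaks. As many regions or more were found in 4.30% of all tiles and in 7.40% of tiles with any peak. The site nearest to the start lay at -3.97 kb and held JUN alone (chr17:38439821-38441106, 11.9-fold, above 51.1% of the list, or 70.3% by p). At -5.97 kb (chr17:38437961-38438426) YAP, TAZ and TEAD4 summits fell within 4 bp of each other, 2.00 kb from that JUN summit. By enrichment TEAD4 ranked above the other 2 there. Its value of 10.3 exceeded 79.3% of the TEAD4 list, while YAP at 6.03 exceeded 24.0% and TAZ at 5.93 exceeded 30.0% of theirs. Ranked by the authors' p instead, the shares were 83.6%, 53.2% and 57.5%, so YAP and TAZ moved from the weak end to just above the middle. In 3.13% of the 5712 regions with YAP and TEAD4 the rank of YAP fell at least as far behind that of TEAD4, and in 10.1% by p.

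The strongest site near CDC6 lay downstream of its start at +26.9 kb (chr17:38470514-38471351) and held all 4 factors with their summits within 10 bp. JUN enrichment was 28.8 (rank 143 of 24554, above 99.4% of the list), the highest JUN value near any of the 6 genes. TEAD4 was enriched 13.0-fold (above 90.4%), YAP 9.34-fold (72.8%) and TAZ 8.42-fold (68.1%). Another site of YAP, TAZ and TEAD4 without JUN, at +57.3 kb, had enrichments of 4.98, 5.31 and 5.64, above 5.08%, 16.5% and 19.7% of the lists. By p these shares were 30.2%, 45.3% and 31.8%, all below the middle. The other 4 JUN peaks near CDC6 had enrichments from 6.67 to 11.3. The retinoic acid receptor gene RARA is the next gene downstream of CDC6 in RefSeq's order and WIPF2 the next upstream.

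The 2 helicase genes, MCM3 and MCM6, each had a single region with YAP, TAZ and TEAD4, and in both it held JUN as well and lay far from the start. For MCM3 it lay at -67.7 kb (chr6:52216934-52217863), where YAP was enriched 11.7-fold, TAZ 9.24-fold, TEAD4 5.37-fold and JUN 22.2-fold. The 4 summits fell within 42 bp. JUN and YAP were high in their lists (above 95.6% and 86.2%), TAZ stood above 74.8%, and TEAD4 was low (14.4%, or 23.2% by p). A rank of YAP this far above that of TEAD4 was found in 0.385% of the regions with both, and in 0.858% by p. The other MCM3 site was a weak JUN peak at +12.8 kb, 7.76-fold and above 7.47% of the list (16.4% by p).

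For MCM6 the shared region lay at +89.4 kb (chr2:136544387-136544836), where YAP was enriched 8.55-fold, TAZ 9.73-fold, TEAD4 5.28-fold and JUN 9.27-fold. The 4 summits fell within 41 bp. TEAD4 was again low in its list (above 12.6%), and here JUN was low too (22.8%), while YAP and TAZ stood above 65.8% and 77.8%. By p, TEAD4 stood above 12.1%, JUN above 33.5%, YAP above 46.5% and TAZ above 62.4% of the lists. In 2.33% of the regions with YAP and TEAD4 the gap was as large in this direction, and in 7.35% by p. The gaps at MCM3, MCM6 and CDC6 -6.0 kb were the largest among the 10 regions near these genes with both factors. Their rarity is therefore that of picked extremes. The other 3 MCM6 sites, at -72.5, +56.3 and +58.3 kb, held JUN alone with enrichments of 11.9, 11.6 and 10.1. YAP and TAZ libraries share their IgG control and the date tag of their raw files, and TEAD4 differs from them in both. A rank difference between these lists therefore cannot be told apart from differences in control or sequencing.

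Near CCNA2 no peak of any list lay upstream within 100 kb, and all 4 regions lay downstream of the start. The strongest lay at +38.8 kb (chr4:122706031-122706705) and held YAP (10.5-fold), TAZ (15.3-fold) and TEAD4 (13.5-fold) with summits within 2 bp and no JUN. These values exceeded 80.9%, 95.1% and 91.5% of the lists, and those of TAZ and TEAD4 were the highest for their factors near any of the 6 genes. The nearest JUN summit lay 5.00 kb away, at +33.8 kb, with 10.9-fold enrichment, above 42.0% of the list (21.7% by p). A TAZ peak stood alone at +32.3 kb (7.05-fold, above 51.5% of the list, or 36.3% by p). The last region, at +94.9 kb (chr4:122649017-122650427), held all 4 lists, where YAP was enriched 7.48-fold, TAZ 8.20-fold, TEAD4 5.56-fold and JUN 11.1-fold. Its TEAD4 peak was joined to the YAP and TAZ peaks only through the JUN peak, and its summit lay 596 bp from that of YAP. This TEAD4 peak exceeded 17.9% of its list, against 52.4% for YAP and 65.6% for TAZ in theirs. By p the shares were 8.33%, 29.8% and 45.3%. BBS7 is the next gene upstream of CCNA2 and EXOSC9 the next downstream in RefSeq's order.

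RRM2 had JUN peaks alone. One lay at -1.86 kb (chr2:10260044-10261265, 10.0-fold, above 32.0% of the list) and the other at +47.9 kb (chr2:10309808-10310914, 17.1-fold, above 83.6%). The nearest TEAD4 summit lay at -181.2 kb, with 6.76-fold enrichment. The nearest YAP and TAZ summits lay at +283.1 kb, with 7.42-fold and 8.86-fold enrichment. Weaker binding within 100 kb was not measured, since the lists hold only peaks that passed the authors' threshold. Peak names carry running numbers. If these count all candidates, 26 YAP, 35 TAZ and 11 TEAD4 candidates between the listed peaks on either side of RRM2 were not listed. Those listed peaks lay at -381.7 and +283.1 kb for YAP and TAZ, and at -181.2 and +283 kb for TEAD4. How many of the candidates lay within 100 kb is unknown.

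Over the 6 genes together, JUN alone made up 13 of the 25 regions (52.0%, against 58.0% of all regions of the series). All 4 factors were present in 5 (20.0%, against 15.2%) and YAP, TAZ and TEAD4 without JUN also in 5 (20.0%, against 4.30%). The remaining 2 regions were YAP, TAZ and JUN at GINS1 and TAZ alone at CCNA2. Each of the 11 regions with YAP also held TAZ, as did 92.4% of all regions with YAP. Peak names in the TAZ list carry the tag YAPTAZ, whose meaning the labels do not give, so how separately the lists were made is unknown. TEAD4 was present at 10 of the 11 (74.9% of all regions with YAP) and JUN at 6 of the 11 (76.8%). Of the 10 with YAP, TAZ and TEAD4, 5 held JUN, against 78.0% of the 5493 such regions in the series. With so few regions, and GINS1 and CDC6 holding 4 of the 5 without JUN, these shares are a count and were not tested.

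Peaks near these genes ran from the weak to the strong end of each list. The median one had higher enrichment than 58.3% of the YAP list (11 peaks, median 7.92-fold against 7.35 for the list), 66.3% of the TAZ list (12 peaks, 8.26 against 6.96) and 50.5% of the TEAD4 list (10 peaks, 7.30 against 7.20). For JUN it was 46.2% (19 peaks, 11.3 against 11.7). The 6 JUN peaks in regions with another factor had a median of 18.4-fold and a range of 9.27 to 28.8, and the 13 standing alone 10.9-fold with a range of 6.67 to 18.6. The ranges overlap. Over the whole list these medians were 13.5 and 10.99.

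**Figure D3:**
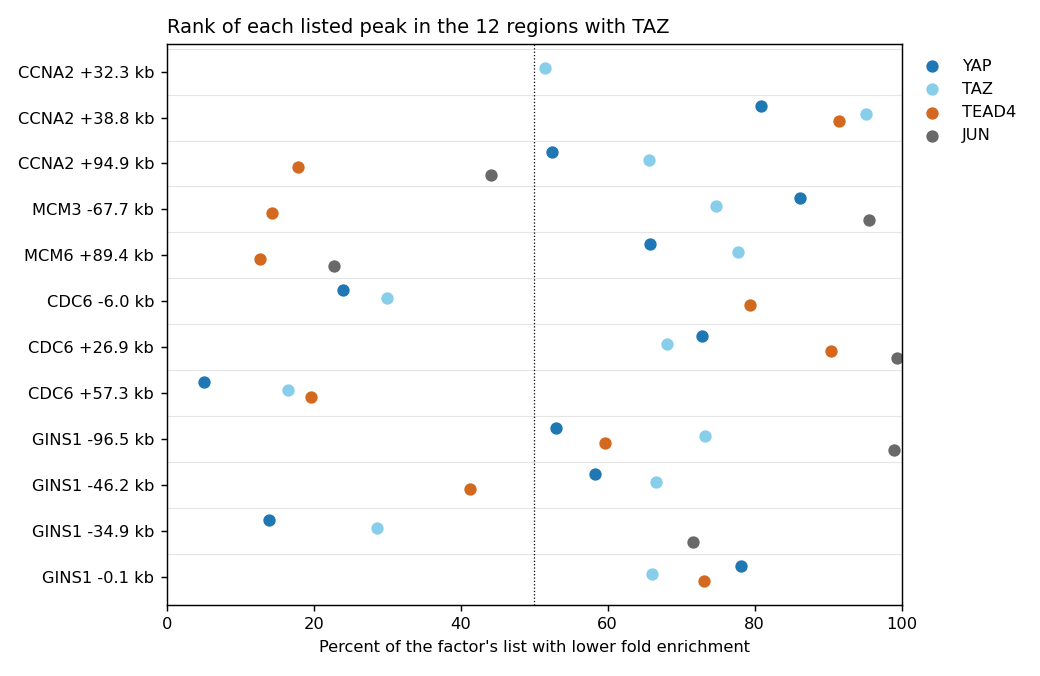
Each row is 1 of the 12 regions with a TAZ peak, named by its gene and the distance of its nearest summit from the start, and each point is the percent of the factor's own list with lower fold enrichment (horizontal axis). The dotted line marks the middle of a list. TEAD4 lies far to the left of YAP and TAZ at MCM3, MCM6 and CCNA2 +94.9 kb. It lies far to the right of them at CDC6 -6.0 kb. These gaps narrow when peaks are ranked by p.

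Summits of YAP, TAZ and TEAD4 lay close together in most of the shared regions. From YAP to TAZ the median was 6 bp (11 regions, 17 bp over the 7048 regions of the series with both) and from YAP to TEAD4 it was 10 bp (10 regions, 16 bp over 5712). In the 6 regions with YAP and JUN it was 37.5 bp (27 bp over 5859), with a range of 3 to 1632 bp. All 4 summits lay within 42 bp of each other at 3 of the 5 regions with all 4 lists, those of MCM3, MCM6 and CDC6. At the other 2, near CCNA2 and GINS1, 1 summit lay at least 596 bp from that of YAP.

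**Figure D4:**
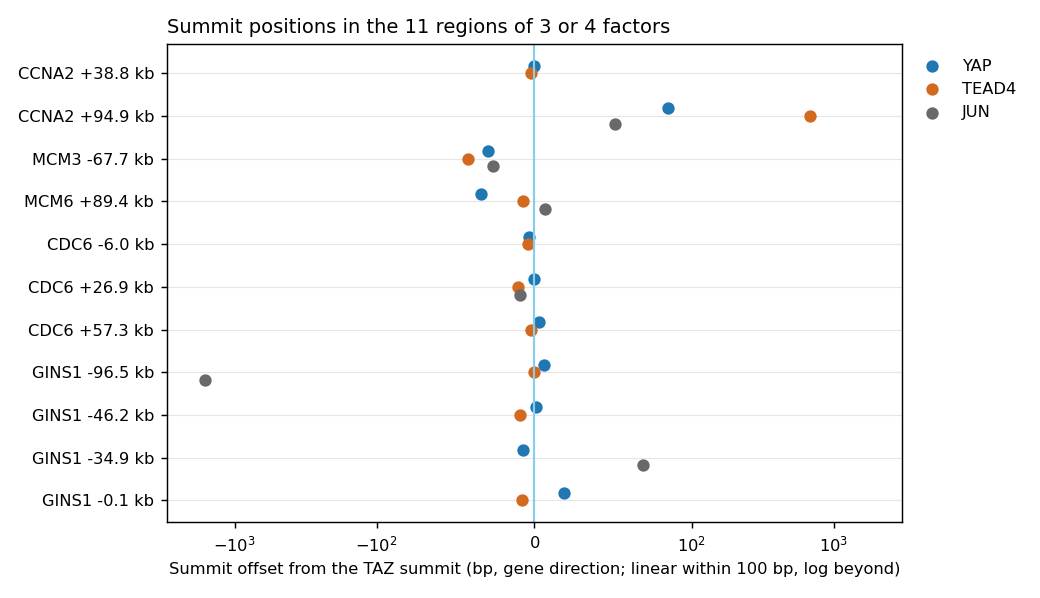
Each row is 1 of the 11 regions with 3 or 4 factors, and points give the offset of the YAP, TEAD4 and JUN summits from the TAZ summit (light blue line) in bp, on an axis that is linear within 100 bp and logarithmic beyond. The TEAD4 summit of CCNA2 +94.9 kb and the JUN summit of GINS1 -96.5 kb stand away from the line.

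The 100-kb limit divides a continuous range. The farthest peak inside it was the JUN peak at -98.2 kb from GINS1. The nearest peaks outside it were those of TEAD4 (6.41-fold), TAZ (7.33-fold) and YAP (5.51-fold) at +103.7 kb from CCNA2.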

How the data were processed

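Peak lists were available for 13 ChIP-seq libraries as 1 list per factor, with samples grouped by the factor or IgG in their labels. The submitters' processing notes name MACS2 2.0.10, Bowtie 0.12.7, CASAVA and SAMtools, and hg19 as the build. Per the labels, peaks were called within the IDR (irreproducible discovery rate) framework, with the value 0.01 in the list names. The deposited values are each peak's start, end and summit, its ratio to IgG, called fold enrichment, and its p-value as −log10. The deposited score is another form of that p-value and was not used. Read depth is unknown.

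Summits (peak start plus offset, counted from 0, which can shift a distance by 1 bp) were compared with 6 hg19 gene starts within 100 kb, signed by strand. Peaks sharing at least 1 bp were joined into regions, and ranks use enrichment within a list. Backgrounds were 200-kb tiles up to each chromosome's last summit and all joined regions. The genes, lists and comparisons were chosen with earlier results of these data known. Peaks named are those within 1 kb of a start, the nearest and strongest of each list per gene and the regions with all 4 lists. Other peaks were named after their values were seen. Joining, distances and ranks were tested on simulated data (Python 3.11.15, pandas 2.3.3, numpy 2.4.6). RefSeq's GRCh38.p14 tables gave promoter windows, matched for all 6 genes, and gene order. No hg19 annotation or sequence was used, so whether a peak is exonic or intronic is not given.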

Additional observations from a re-analysis of the deposited data

How the results depend on the processing

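Of 25 alternative counts, 6 stayed within 1.5 times of the reported count and 19 moved beyond it. A window of 50 or 200 kb, or a list cut to 50%, changes a count by construction. Much of this tally was therefore fixed in advance. With a window of 50 kb the counts were 6 YAP, 7 TAZ, 5 TEAD4 and 9 JUN peaks and 1 region with all 4 lists, against 11, 12, 10, 19 and 5 at 100 kb. With 200 kb they were 18, 23, 20, 49 and 9. With the stronger 50% of each list they were 6, 7, 4, 8 and 1. The 4-list regions numbered 3 with summits within 200 bp, 3 with peaks narrowed to 200 bp and 2 with a reciprocal overlap of 50%. A promoter of 2 kb added the JUN peak of RRM2, giving 2 genes, while 500 bp and the stronger 50% left GINS1 alone. Ranked by p, 4 medians were lower: the median peak stood above 53.2% of the YAP, 59.9% of the TAZ, 39.9% of the TEAD4 and 36.9% of the JUN list. Ranking by p for the gaps between YAP and TEAD4 ranks was added after seeing the data, and each gap was then less rare. No setting could drop a library, as each list pools both. No paired analysis was possible because each deposited list joins both libraries of a factor. What depth limits is unknown here.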
